A study of Mus musculus with 4 samples.

Results

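Imprinted genes are expressed from only the maternal or only the paternal copy. The members described here are 23 imprinted genes, or genes that host an imprinted control region, on mouse chromosomes 1 to 7: Zdbf2, H13, Blcap, Nnat, Gnas, Calcr, Sgce, Peg10, Ppp1r9a, Asb4, Mest, Copg2, Herc3, Nap1l5, Zim1, Peg3, Usp29, Ube3a, Snrpn, Ndn, Magel2, Mkrn3 and Inpp5f. They are listed by name, and no measured value enters the rule. A locus runs from 2000 bp below the annotated gene to 2000 bp above it. Of 1048575 windows of 100 bp listed in the deposited table, 1902 overlapped these 23 loci, which are 23 of 21612 annotated genes in the range of the table.

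Methylation was read out by MeDIP-seq: an antibody that binds 5-methylcytosine enriches methylated fragments of sonicated DNA, and total DNA (input) is sequenced for comparison. The DNA came from thymic natural killer T (NKT) cells, lipid-recognising T cells sorted by CD1 tetramer, of C57BL/6 mice. The groups were PLZFon MeDIP, WT MeDIP, PLZFon input and WT input, with 1 library each, so all differences are between libraries and no test of genotype was possible. NKT cells need the zinc finger transcription factor PLZF to mature. What the PLZFon allele is, how many animals were used and their age are not given in the sources used here, and no treatment is named. The antibody label conflicts with the titles, which set the groups here: it reads none for PLZFon MeDIP and PLZFon input, and names the antibody for WT MeDIP and WT input. Over all listed windows, which were chosen by MeDIP reads, the MeDIP libraries had 4.22 (PLZFon) and 4.44 (WT) times their inputs after scaling to depth. The libraries held about 10635946 (PLZFon MeDIP), 15143451 (WT MeDIP), 50365402 (PLZFon input) and 60689327 (WT input) reads. A window was listed only with at least 10 reads over both MeDIP libraries, so a window that is not listed held fewer or was not analysed here. Every 95% interval given uses an exact formula and covers counting error only. Those of regions, loci and sets of windows rest on window sums divided by 4, and their width depends on that divisor. MeDIP gives a level per stretch of DNA and does not tell the maternal from the paternal copy, nor cells of different kinds in the sort.

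Imprinting rests on germline control regions, CpG-rich stretches that receive methylation in the egg or the sperm and keep it on that parental copy in body cells, while the other copy stays unmethylated. Most CpG-rich gene starts elsewhere are free of methylation on both copies. The zinc finger protein ZFP57 binds the methylated sequence TGCCGC in such regions and helps to keep their methylation. The regions set apart here lie at the starts of Mest, Nap1l5, Nnat and Peg3, between Sgce and Peg10, at the start of Mcts2 inside H13, at the start of the antisense RNA Nespas (annotated as Gnasas1) and at exon 1A in Gnas, at the start of Snurf in Snrpn, and near Gpr1 beside Zdbf2. The control region inside Inpp5f has no annotated start of its own and was not set apart. All 137 listed windows of Inpp5f are therefore counted as outside control regions.

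A control region was taken as 1000 bp on each side of such a start, 21 windows in all. To 9 regions taken from textbook knowledge, the distal start of Zdbf2 and the exon 1A start of Gnas were added after the files were seen. Promoter windows, from 250 bases before the start to 50 after it, were taken from RefSeq (GRCm38.p6, the primary assembly of mm10). They are shown because the CpG sites, in capitals, are the bases the antibody can report on. The Mest start (chr6:30737800-30738099, plus strand) has 17 CpG, the Nap1l5 start (chr6:58907077-58907376, minus strand) 17, the Nnat start (chr2:157559828-157560127, plus strand) 17 and the Peg3 start (chr7:6730370-6730669, minus strand) 13.
Mest: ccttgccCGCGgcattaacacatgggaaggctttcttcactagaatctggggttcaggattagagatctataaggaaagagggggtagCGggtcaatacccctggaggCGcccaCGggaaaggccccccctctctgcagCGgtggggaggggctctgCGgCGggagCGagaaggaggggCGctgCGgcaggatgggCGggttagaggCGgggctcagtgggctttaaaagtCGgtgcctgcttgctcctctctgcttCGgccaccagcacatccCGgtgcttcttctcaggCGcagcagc
Nap1l5: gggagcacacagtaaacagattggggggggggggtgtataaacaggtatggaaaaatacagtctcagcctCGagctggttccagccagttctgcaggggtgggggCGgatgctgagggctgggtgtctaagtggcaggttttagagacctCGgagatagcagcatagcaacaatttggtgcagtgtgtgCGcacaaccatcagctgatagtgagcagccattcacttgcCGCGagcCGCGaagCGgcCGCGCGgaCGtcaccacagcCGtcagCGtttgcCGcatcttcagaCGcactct
Nnat: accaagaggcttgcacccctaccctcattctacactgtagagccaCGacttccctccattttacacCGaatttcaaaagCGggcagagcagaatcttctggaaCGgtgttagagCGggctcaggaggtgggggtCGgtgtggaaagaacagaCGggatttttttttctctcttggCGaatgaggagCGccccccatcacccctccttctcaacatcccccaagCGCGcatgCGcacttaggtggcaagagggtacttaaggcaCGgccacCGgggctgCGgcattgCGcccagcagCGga
Peg3: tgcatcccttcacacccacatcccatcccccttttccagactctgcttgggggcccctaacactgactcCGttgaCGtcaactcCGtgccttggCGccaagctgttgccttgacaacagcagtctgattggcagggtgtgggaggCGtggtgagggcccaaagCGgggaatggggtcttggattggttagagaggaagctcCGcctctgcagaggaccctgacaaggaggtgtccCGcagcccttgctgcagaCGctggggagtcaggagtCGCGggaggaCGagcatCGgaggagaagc

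The Mcts2 start (chr2:152686898-152687197, plus strand) has 25 CpG and the Snurf start (chr7:60005150-60005449, minus strand) 7. Mcts2 is shown for having the most listed windows and Snurf for having none.
Mcts2: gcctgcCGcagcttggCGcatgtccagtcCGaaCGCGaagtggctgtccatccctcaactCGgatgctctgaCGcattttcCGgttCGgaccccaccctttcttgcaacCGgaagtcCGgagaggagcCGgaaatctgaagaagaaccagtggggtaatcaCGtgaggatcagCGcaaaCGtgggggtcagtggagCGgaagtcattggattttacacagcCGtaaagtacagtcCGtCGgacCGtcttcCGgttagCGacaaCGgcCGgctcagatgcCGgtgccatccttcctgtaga
Snurf: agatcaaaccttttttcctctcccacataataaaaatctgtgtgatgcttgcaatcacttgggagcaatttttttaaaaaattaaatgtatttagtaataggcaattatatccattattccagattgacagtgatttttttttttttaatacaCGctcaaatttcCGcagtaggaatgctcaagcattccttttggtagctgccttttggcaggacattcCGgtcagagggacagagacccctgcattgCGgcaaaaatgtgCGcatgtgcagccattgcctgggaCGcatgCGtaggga

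Zdbf2 and Gnas each have a start in a control region and another CpG-rich start outside it, shown as pairs. The distal Zdbf2 start (chr1:63200108-63200407, plus strand) has 15 CpG and the proximal one (chr1:63273019-63273318, plus strand) 38. The Gnas exon 1A start (chr2:174327499-174327798, plus strand) has 27 and the start further downstream (chr2:174329756-174330055, plus strand) 40.
Zdbf2 distal: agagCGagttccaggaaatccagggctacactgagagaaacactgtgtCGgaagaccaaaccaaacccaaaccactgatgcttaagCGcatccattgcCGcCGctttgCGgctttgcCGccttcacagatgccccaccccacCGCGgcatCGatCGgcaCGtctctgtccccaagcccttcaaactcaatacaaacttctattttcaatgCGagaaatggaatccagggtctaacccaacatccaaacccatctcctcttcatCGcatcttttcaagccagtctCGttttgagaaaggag
Zdbf2 proximal: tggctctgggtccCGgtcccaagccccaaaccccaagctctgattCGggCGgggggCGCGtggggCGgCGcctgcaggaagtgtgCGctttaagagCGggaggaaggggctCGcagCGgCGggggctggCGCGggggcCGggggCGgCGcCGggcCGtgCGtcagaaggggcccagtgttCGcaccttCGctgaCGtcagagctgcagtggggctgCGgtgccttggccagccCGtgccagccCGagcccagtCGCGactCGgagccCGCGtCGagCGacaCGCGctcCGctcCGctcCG
Gnas exon 1A: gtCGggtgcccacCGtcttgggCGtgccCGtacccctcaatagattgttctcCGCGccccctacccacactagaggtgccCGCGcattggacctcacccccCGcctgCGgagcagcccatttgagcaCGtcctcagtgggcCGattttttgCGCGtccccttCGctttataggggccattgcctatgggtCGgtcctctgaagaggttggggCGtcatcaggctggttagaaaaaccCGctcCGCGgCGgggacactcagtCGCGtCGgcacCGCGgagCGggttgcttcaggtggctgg
Gnas downstream: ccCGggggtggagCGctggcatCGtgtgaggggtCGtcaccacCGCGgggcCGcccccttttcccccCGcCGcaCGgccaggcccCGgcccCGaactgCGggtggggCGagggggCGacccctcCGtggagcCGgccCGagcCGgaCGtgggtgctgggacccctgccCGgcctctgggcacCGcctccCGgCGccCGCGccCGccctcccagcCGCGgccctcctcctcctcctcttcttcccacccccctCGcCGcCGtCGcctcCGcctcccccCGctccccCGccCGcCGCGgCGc

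The letters TGCCGC, searched on both strands, were found in 6 of the 9 control-region promoters in the RefSeq table, with 10 matches. Of all 32851 promoter windows 11.6% hold them, and of the 12454 with at least 13 CpG, a minimum set after the values were seen, 24.1% do. Among the 9, Snurf with 7 CpG and Gpr1 with 2 fall below that minimum. The distal Zdbf2 and Gnas exon 1A starts were added to them after the files were seen. The distal Zdbf2 start has 3 matches, beginning 155, 136 and 107 bases before the start. Mest has 2, at 242 and 67 bases before it, and Nap1l5 has 2, at 24 bases before and 28 after. Nnat, Mcts2 and Snurf have 1 each, while Peg3, Gnas exon 1A and Gpr1 have none. Among the other 23 starts of members, 3 hold the letters (Calcr, Copg2 and Zim1). The letters GCCATNTT of the factor YY1, on both strands, were in 0 of the 9 and in 2 of the 23 (Ube3a and Mkrn3), against 6.05% of all promoter windows.

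The first question was whether methylated DNA was recovered at the control regions. Listed windows were found around 9 of 11 of them. The RefSeq promoter table holds 9 control-region starts, and they had 0 to 17 listed windows of 21. Mcts2 had 17, Mest 13, the distal Zdbf2 start 11, Nap1l5 and Gnas exon 1A 10 each, Nnat and Peg3 9 each, and Snurf and Gpr1 none. The starts without listed windows were also those with the fewest CpG in the promoter window, 7 at Snurf and 2 at Gpr1. Of the other 23 starts of members 16 had no listed window, among them the proximal Zdbf2 start and the downstream Gnas start. The most among them were 9, at the furthest upstream Gnas start. Over 12353 genes, each at its start with the most CpG, 6650 had no listed window and the range was 0 to 21. No comparison is drawn from these counts, since the Zdbf2 and Gnas exon 1A starts were added after the files were seen and are not the richest in CpG of their genes.

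**Figure D1:**
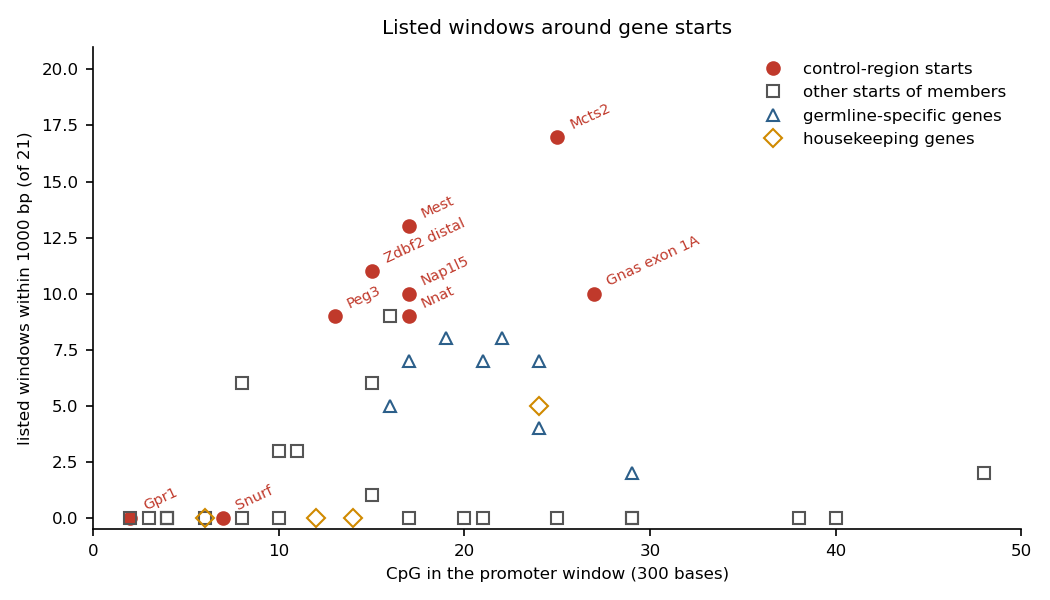
Listed windows within 1000 bp of a gene start (vertical axis, of 21) by the number of CpG in its promoter window (horizontal axis), for the 9 control-region starts, the other 23 starts of members, 8 germline-specific and 4 housekeeping genes, 1 point each with overlaps. Control-region starts lie at 9 to 17 listed windows except Snurf and Gpr1 at 0, and 16 of the other member starts lie at 0.

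Starts with known methylation in body cells were counted in the same way. The germline-specific genes measured, such as Sycp1 and Slc25a31, whose promoters are methylated on both copies in somatic cells, had 2 to 8 listed windows over 8 starts, with a median of 7. Of 4 housekeeping starts, 3 (Gapdh, B2m and Gusb) had none and Rplp0 had 5. The control-region starts, those added later included, had a median of 10, and these counts are not used to grade methylation. Around the Snurf start there was no listed window within 2000 bp either. The annotated start of Gpr1 lies away from the distal Zdbf2 start, where the listed windows of that region were found.

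Within the control regions the CpG-dense windows held fewer MeDIP reads than listed windows of like CpG content, and by a similar factor in both genotypes. Windows with a CpG factor (the authors' score of CpG content, here 1 to 20) of at least 5 were called CpG-dense. The 41 such windows in control regions held 7.37 reads on average in PLZFon MeDIP and 11.2 in WT MeDIP. All listed windows of the same CpG factors (10 and above as a single class) averaged 16.1 reads in PLZFon MeDIP and 24.3 in WT MeDIP. These CpG-dense windows thus stood at 0.457 of that level in PLZFon (95% interval 0.36 to 0.572) and at 0.46 in WT (0.379 to 0.552). Their inputs were also somewhat low, at 0.812 (0.66 to 0.989) in PLZFon and 0.805 (0.665 to 0.967) in WT, and the part of the inputs in the MeDIP values was not tested. All 94 listed windows of the control regions, CpG-dense or not, stood at 0.704 (0.609 to 0.809) in PLZFon MeDIP and 0.68 (0.604 to 0.764) in WT MeDIP.

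The 153 CpG-dense windows of the same loci outside control regions stood between those of control regions and all listed ones. They stood at 0.778 (0.704 to 0.857) in PLZFon MeDIP and 0.742 (0.684 to 0.804) in WT MeDIP. Set against their own input, CpG-dense windows of control regions had 3.62 times the input in PLZFon (2.65 to 4.94) and 3.99 times in WT (3.05 to 5.21). The 153 windows outside control regions had 4.95 (4.3 to 5.7) in PLZFon and 5.39 (4.76 to 6.11) in WT. These 153 include the flanks, other gene starts and all CpG-dense windows of the Inpp5f locus. All 81797 listed CpG-dense windows had 6.02 and 6.59. Single classes of CpG content varied. At a CpG factor of at least 7, the 21 windows of control regions had 3.46 times the input in PLZFon (2.23 to 5.32) and 3.56 times in WT (2.42 to 5.23), where all listed windows had 6.72 and 7.36. At a factor of 3 the 22 windows of control regions had 5.12 (3.57 to 7.36) in PLZFon and 4.28 (3.07 to 5.98) in WT, where all listed windows had 4.49 and 4.74. At a factor of 5 or 6 the 20 windows of control regions had 3.81 in PLZFon and 4.47 in WT, where all listed windows had 5.81 and 6.35. At a factor of 4 only 6 windows of control regions were listed, with 3.01 (1.25 to 6.94) in PLZFon and 3.42 (1.64 to 7.04) in WT, where all listed windows had 5.14 and 5.48. At a factor of 2 the values were 3.89 and 5.08, against 3.97 and 4.14 in all listed windows, and at a factor of 1 they were 2.39 and 3.67, against 3.56 and 3.68. The values of control regions showed no steady order with CpG content. The listed windows serve as a scale only, since a window entered the table through its MeDIP reads. Around 7 control-region starts with at least 13 CpG, listed windows had 4.4 times the input in PLZFon and 4.18 in WT. Around 12 other member starts with that minimum they had 2.74 and 3.03, and over 4950 genes 3.61 and 3.73. Germline-specific starts had 3.49 and 4.4, and housekeeping starts 2.37 and 2.53. The 7 include the starts added later, 8 of the 12 had no listed window, and no intervals were computed. Nothing is concluded from these values.

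**Figure D2:**
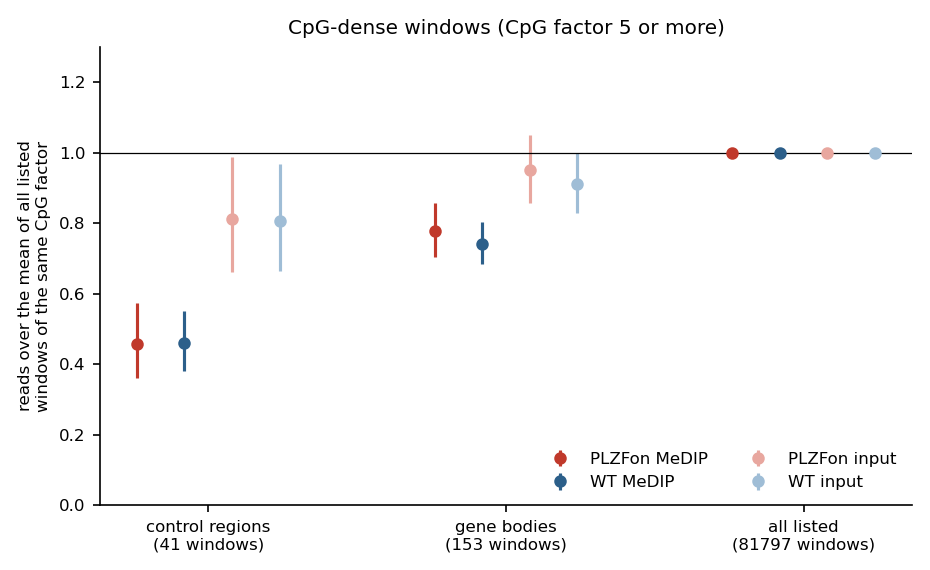
Reads in CpG-dense windows over the mean of all listed windows of the same CpG factor (1 means equal), for each library, with exact Poisson 95% intervals. In control regions both MeDIP libraries lie near 0.46 and the inputs near 0.81. The points named gene bodies are all other CpG-dense windows of the loci, flanks included. They lie between these regions and the listed windows as a whole.

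The second question was whether PLZFon and WT differed at the control regions. Summed over all 94 listed windows of the regions, they did not differ beyond counting error, with 198 PLZFon and 287 WT MeDIP reads and a depth-scaled ratio of 0.986 (0.818 to 1.19). The input ratio was 1.06 (0.886 to 1.26). Of the 9 regions with listed windows 4 lay above equality and 5 below it, and each interval included equality. The distal Zdbf2 and Gnas exon 1A starts, added after the files were seen, were among those above. Without them the MeDIP ratio over the remaining 73 listed windows was 0.889 (0.715 to 1.1). Reads over a region are window sums divided by 4, since a read is counted in about 4 windows.

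The regions of Nnat and Gnas exon 1A had the highest ratios. Nnat encodes neuronatin, a small membrane protein, and its control region lies inside Blcap. It held 21.8 reads in PLZFon MeDIP and 20 in WT MeDIP, a ratio of 1.55 (0.804 to 3), with 16.2 PLZFon and 22.8 WT input reads. The windows just before the start carried this, with 15 PLZFon and 8 WT reads in the window from 157559901 to 157560000. A further stretch of listed windows on the other side of the start ran the other way, with 5 PLZFon and 19 WT reads in the window from 157561901 to 157562000, where the inputs were both 11.

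Gnas encodes the stimulatory G protein alpha subunit and several imprinted transcripts. Around its exon 1A start there were 28.5 reads in PLZFon MeDIP and 24.5 in WT MeDIP, a ratio of 1.66 (0.931 to 2.97). The inputs there were high in both genotypes, at 46.5 PLZFon and 41.8 WT reads, or 1.72 and 1.3 times the mean of windows of the same CpG factor. Around the start of Nespas, the antisense RNA of the same locus, there were 10.8 PLZFon and 20.2 WT MeDIP reads, a ratio of 0.756 (0.325 to 1.66). That direction depended on the region: the Nespas ratio was 3.56 (0.425 to 65.1) within 500 bp and 3.32 (0.121 to 571) in CpG-dense windows, from few reads, while Gnas exon 1A stood at 1.58 and 1.81.

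The lowest ratios were at Nap1l5, a retrogene inside Herc3, and at Peg10, a gene derived from a retrotransposon and needed for the placenta. The Nap1l5 region held 11.2 PLZFon and 29.2 WT MeDIP reads, a ratio of 0.548 (0.249 to 1.12). Its inputs moved the same way, with 14.5 PLZFon and 28 WT reads and a ratio of 0.624 (0.307 to 1.22), and their part in the result was not tested. The Peg10 region, shared with the start of the sarcoglycan gene Sgce, held 11 PLZFon and 25 WT MeDIP reads, a ratio of 0.626 (0.278 to 1.32), while its input ratio was 1.35 (0.718 to 2.54). At its strongest window (chromosome 6, 4747901 to 4748000) there were 6 PLZFon and 18 WT MeDIP reads, with 20 and 14 input reads.

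Mest, which encodes a hydrolase-like protein, and Peg3, which encodes a zinc finger protein, also lay below equality. The Mest region held 19.2 PLZFon and 40.5 WT MeDIP reads, a ratio of 0.677 (0.372 to 1.19). Its inputs stood at 0.925 (0.54 to 1.57). The Peg3 region, whose start is shared with the deubiquitinase gene Usp29, held 17.8 PLZFon and 31.5 WT MeDIP reads, a ratio of 0.802 (0.422 to 1.48), with 20.8 input reads in both genotypes. Mcts2 and the distal Zdbf2 start lay slightly above equality. Mcts2, a retrogene copy in H13, held 48 PLZFon and 57.2 WT MeDIP reads, a ratio of 1.19 (0.796 to 1.78). The distal Zdbf2 start held 30.2 PLZFon and 38.5 WT MeDIP reads, a ratio of 1.12 (0.671 to 1.85), and had the most MeDIP over input of the regions, at 8.43 in PLZFon (4.51 to 16.3). In WT it had 5.41 (3.25 to 9.12), second to Peg3 with 6.08 (3.39 to 11.1).

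**Figure D3:**
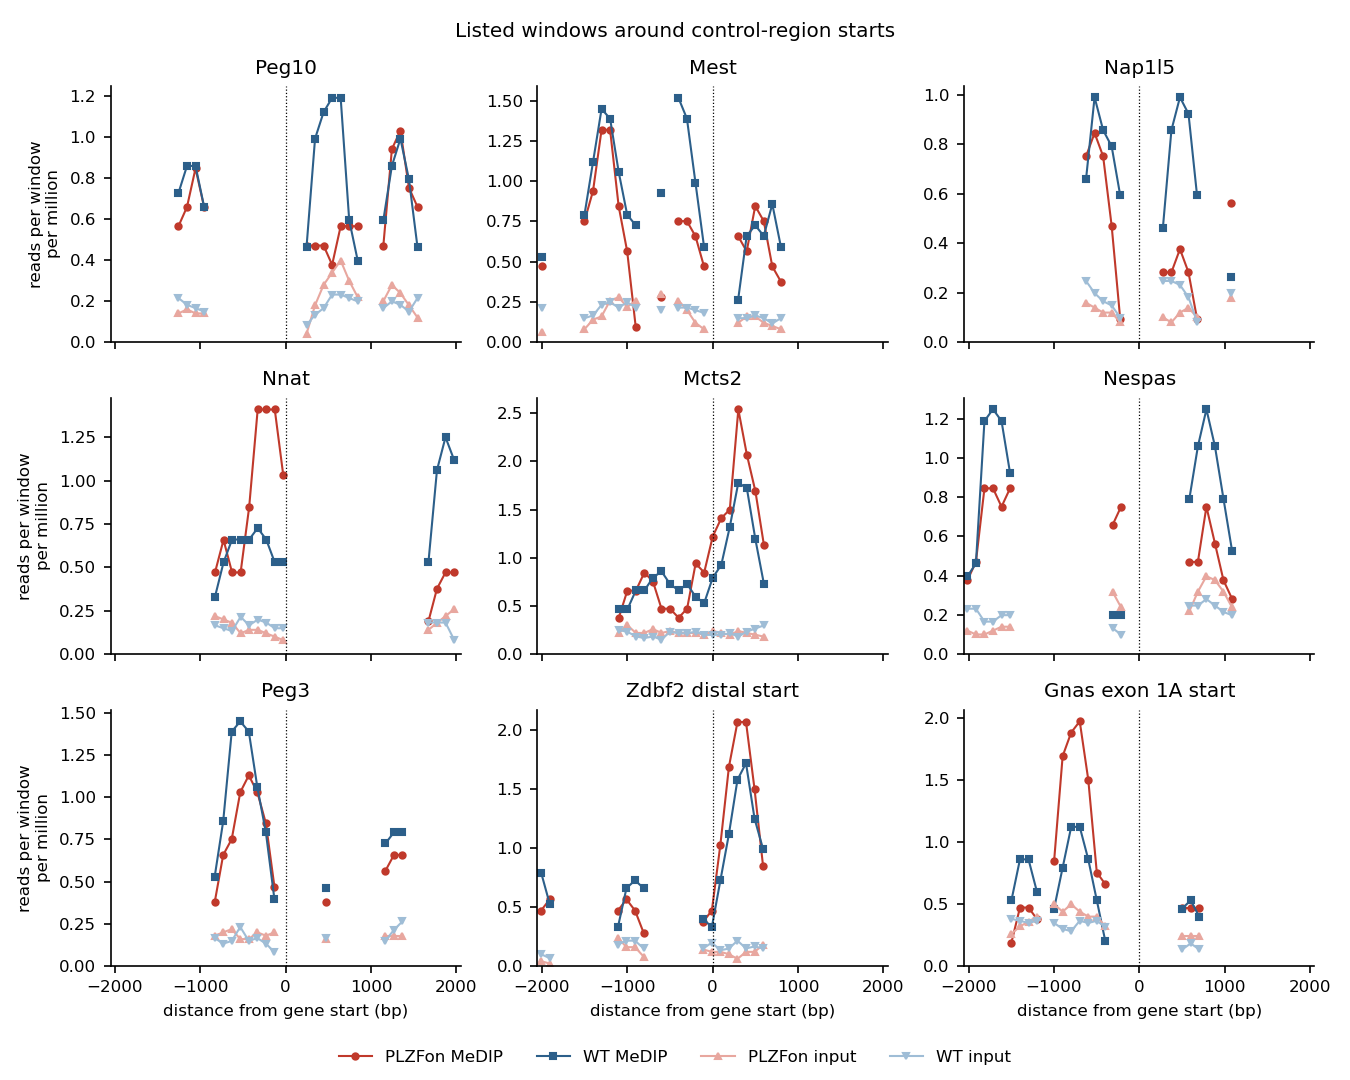
Depth-scaled reads in each listed window (vertical axis, a separate scale for each region) by distance of its centre from the gene start (horizontal axis, bp), for the 9 control regions with listed windows and all 4 libraries. Gaps are windows not listed. MeDIP lies above input in most windows, which were listed for their MeDIP reads. PLZFon MeDIP lies above WT just before the Nnat start (15 against 8 reads in the window from 157559901). It lies below WT after the Peg10 start (6 against 18 in the window from 4747901).

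The window with the most reads over both MeDIP libraries lay beside the start rather than on it. In the distal Zdbf2 region that window (chromosome 1, 63200701 to 63200800) lay 343 bp after the start, with 22 PLZFon and 26 WT MeDIP reads. In Mcts2 the strongest window (chromosome 2, 152687401 to 152687500) lay 253 bp after the start, with 27 reads in each of PLZFon and WT MeDIP. In Peg3 it lay 481 bp before the start (chromosome 7, 6730801 to 6730900), with 12 PLZFon and 21 WT reads. The strongest windows of 5 of these 9 regions had a CpG factor of only 2 to 3, beside denser windows with fewer reads. The authors' relative methylation score of the control-region windows had a median of 0.47 in PLZFon and 0.535 in WT, where the medians of listed windows of the same CpG factors averaged 0.499 and 0.551.

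The third question was whether PLZFon and WT differed over the whole loci. Together the 23 loci held 3972 PLZFon and 5756 WT MeDIP reads, a ratio of 0.983 (0.943 to 1.02), with an input ratio of 1.05 (1.01 to 1.09). With TMM factors (edgeR's trimmed-mean scaling) the MeDIP ratio was 1.02 (0.979 to 1.06). All 23 had at least 20 reads, and 9 lay above and 14 below equality. None of the 23 differed at least 2-fold with an interval that excluded equality, where 0.317% of 7888 protein-coding loci did (0.0634% higher and 0.254% lower in PLZFon). None had an interval that excluded equality at all, where 6.29% of those loci did (1.20% higher and 5.08% lower in PLZFon). Under other settings 3 members did have such an interval. Zdbf2 stood at 1.17 (1.01 to 1.36) with TMM factors, where 2.28% of protein-coding loci were higher in PLZFon by that measure and 2.31% lower, and likewise with scaling by CpG classes (1.02 to 1.36) or by the listed windows (1.01 to 1.36). Copg2 stood at 0.687 (0.477 to 0.978) in windows with at least 20 reads. The Calcr ratio of 0.831 had an interval of 0.698 to 0.987 with window sums divided by 3. Under these settings, and with scaling by CpG classes or by the listed windows, the share of protein-coding loci was not counted. Nothing is concluded from the intervals under those settings. Between the inputs 0.161% of protein-coding loci met the 2-fold rule. The median log2 ratio was -0.04 for the members and -0.06 for the protein-coding loci.

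Paternally expressed genes with many reads lay close to equality. Sgce held 307 PLZFon and 420 WT MeDIP reads, a ratio of 1.04 (0.896 to 1.21), and the Peg10 locus beside it held 131 and 192, a ratio of 0.976 (0.775 to 1.22). Mest held 143 reads in PLZFon and 216 in WT, a ratio of 0.94 (0.755 to 1.17). Usp29 held 346 reads in PLZFon and 465 in WT, a ratio of 1.06 (0.921 to 1.22). Peg3 stood at 0.826 (0.647 to 1.05), from 111 PLZFon and 191 WT reads. Zdbf2, a zinc finger gene that affects growth, stood at 1.13 (0.977 to 1.31) from 335 PLZFon and 421 WT reads. Its input ratio was higher still, at 1.31 (1.14 to 1.52), an interval that excludes equality, and its part in the MeDIP ratio was not tested. Nnat (1.11, 0.67 to 1.84) and Nap1l5 (0.733, 0.389 to 1.33) rested on few reads. Without the flanks Nnat stood at 0.78 (0.345 to 1.67) and Nap1l5 at 0.459 (0.131 to 1.32). Outside their control regions they stood at 0.656 (0.258 to 1.53) and 1.76 (0.473 to 6.96), so neither locus had a direction that held.

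The cluster of chromosome 7 that matches the human Prader-Willi and Angelman region was thinly covered. Of its windows 2.25% were listed in Snrpn, which encodes a splicing protein, and 1.04% in Ube3a, the ubiquitin ligase gene of Angelman syndrome, against a median of 12% over protein-coding loci. Ube3a had 15.8 PLZFon and 20.5 WT MeDIP reads over 9 listed windows, a ratio of 1.09 (0.53 to 2.22). Snrpn stood at 1.05 (0.871 to 1.27). The intronless genes of the cluster also had few reads. Magel2 had 11.8 in PLZFon and 24 in WT, a ratio of 0.697 (0.315 to 1.46), and Mkrn3 had 10.5 and 22, a ratio of 0.68 (0.293 to 1.48). Necdin, encoded by Ndn, had 22.2 reads in PLZFon and 31.5 in WT, a ratio of 1.01 (0.557 to 1.79). Differences of the size seen at Magel2 and Mkrn3 were not detectable at this depth.

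Among genes expressed from the maternal copy and hosts of control regions, no interval excluded equality with depth scaling. Gnas had 328 PLZFon and 444 WT MeDIP reads, a ratio of 1.05 (0.91 to 1.22), with an input ratio of 1.16 (1.02 to 1.33). Zim1, a zinc finger gene beside Peg3, stood at 0.978 (0.728 to 1.31). Calcr, the calcitonin receptor gene, had 160 PLZFon and 274 WT MeDIP reads, and its ratio of 0.831 (0.679 to 1.01) came nearest to leaving equality. Asb4, of the ankyrin repeat and SOCS box family, stood at 0.861 (0.603 to 1.22). Ppp1r9a, which encodes the actin-binding protein neurabin, had the most reads of the members, 761 PLZFon and 1132 WT, and stood at 0.957 (0.872 to 1.05). H13, a signal peptide peptidase gene and host of Mcts2, stood at 0.899 (0.781 to 1.03), and Blcap, host of Nnat, at 0.958 (0.673 to 1.35). Herc3, host of Nap1l5, stood at 1.07 (0.872 to 1.3), Copg2, a coatomer gene that overlaps the end of Mest, at 0.828 (0.652 to 1.05), and Inpp5f, a phosphatase gene with an imprinted inner transcript, at 0.972 (0.843 to 1.12). Loci that overlap share windows: all 15 of Nnat lie in Blcap and all 14 of Nap1l5 in Herc3, while Sgce and Peg10 share 16, Peg3 and Usp29 12, and Mest and Copg2 6.

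**Figure D4:**
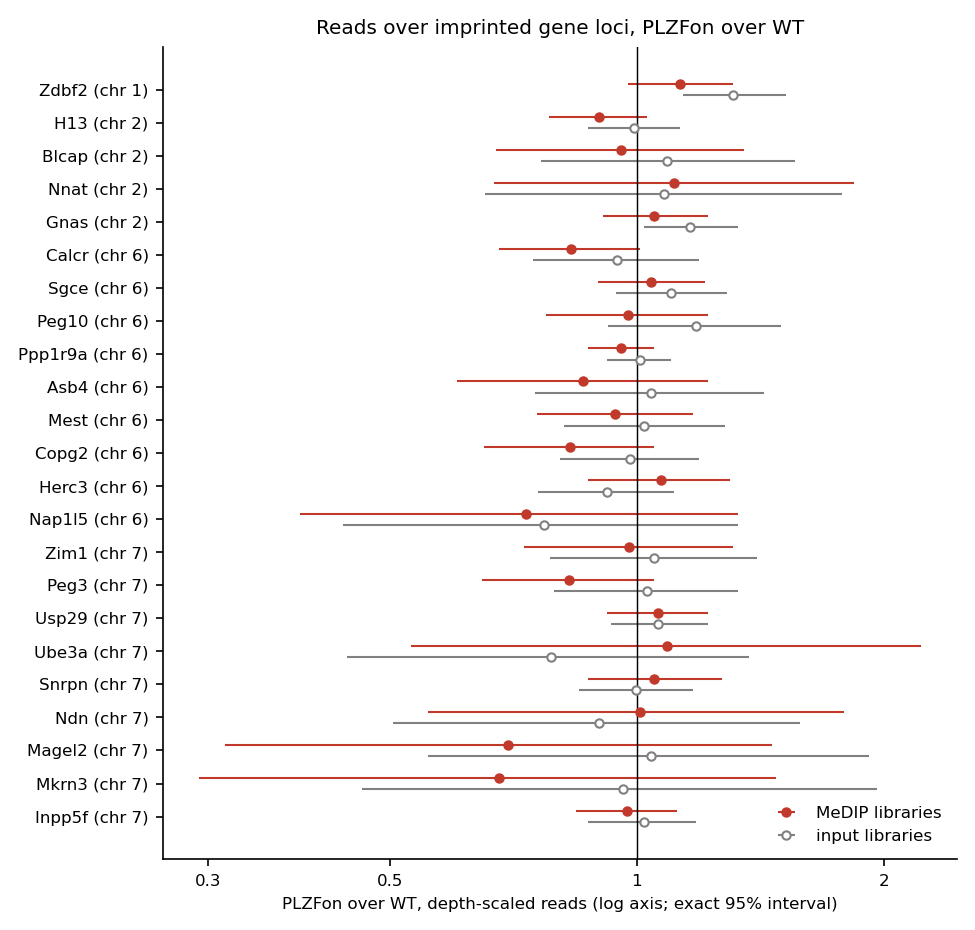
PLZFon over WT ratio of depth-scaled reads (log axis) for each of the 23 loci, with MeDIP in filled red and input in open grey and exact 95% intervals as bars. All MeDIP intervals cross 1, and the input intervals of Zdbf2 and Gnas lie above it.

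MeDIP over input differed between the loci. Calcr had the most MeDIP over input, 5.73 in PLZFon and 6.52 in WT, followed in WT by Peg3 at 5.81, where PLZFon had 4.66. Ube3a had the least in WT, 2.33, with 3.24 in PLZFon, and Snrpn had 3.27 in PLZFon and 3.1 in WT. The strongest window of all members lay in the flank of Inpp5f, outside the annotated gene (chromosome 7, 128609601 to 128609700), with 71 PLZFon and 89 WT MeDIP reads and 17 and 16 input reads. It belonged to a run of 5 CpG-dense windows (128609501 to 128610100) with 11.5 times the input in PLZFon and 13.2 times in WT, and a PLZFon over WT ratio of 1.01 (0.697 to 1.46). A CpG-dense run inside Calcr (chromosome 6, 3696101 to 3696500) had 10.2 times the input in PLZFon and 8.07 times in WT. The listed windows of the Gnas locus held several CpG-dense runs, among them one of 5 windows at 174286301 to 174287900. That run held 10 PLZFon and 24 WT MeDIP reads, a ratio of 0.593 (0.253 to 1.29).

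The fourth question was which single windows of the loci differed. Of 715 windows with at least 20 MeDIP reads, 11 met the 2-fold rule as higher in PLZFon and 16 as lower, which is 3.78% in all. Over all listed windows 3.30% met this rule (1.13% higher and 2.17% lower), a share near that of these loci. With TMM factors the split was 19 higher and 14 lower, where 1.80% of all listed windows were higher and 1.74% lower. With a minimum of 10 reads, which takes in all 1902 windows, 22 were higher and 29 lower, where 1.39% of all listed windows were higher and 1.57% lower. Between the inputs 32 of 995 member windows met the rule, where 3.36% of all listed windows did. Neighbouring windows share reads, and the 27 windows formed 18 separate places in 10 loci or pairs of loci, 6 higher and 12 lower. Control regions held 2 of these places, a single window each, higher in PLZFon at Nnat and lower at Peg10. Places were not counted over all listed windows, so these numbers have no share beside them and nothing is concluded from them.

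The lowest ratio was in Calcr (chromosome 6, 3717001 to 3717100), with 1 PLZFon and 22 WT MeDIP reads, a ratio of 0.0647 (0.00157 to 0.4). The inputs there were also low in PLZFon, with 3 reads against 11 in WT, and their part in the result was not tested. In H13, 3 adjacent windows (chromosome 2, 152708001 to 152708300) ending 368 bp before the annotated end of the gene were lower in PLZFon, and this place had the most reads of the lower ones. The middle window (152708101 to 152708200) had 7 PLZFon and 41 WT MeDIP reads, a ratio of 0.243 (0.092 to 0.547), with similar inputs of 13 and 12 reads. Ppp1r9a held the third lowest window (chromosome 6, 5095801 to 5095900), with 3 PLZFon and 17 WT reads and inputs of 12 and 5. In Copg2 a pair of windows 1415 bp from the end of the gene where its promoter lies (30895201 to 30895400) summed to 11 PLZFon and 43 WT reads.

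The highest ratio was in Ppp1r9a, 2529 bp inside the gene (chromosome 6, 4905401 to 4905500), with 25 PLZFon and 13 WT MeDIP reads, a ratio of 2.74 (1.35 to 5.83), and inputs of 17 and 13 reads. Next came the window before the Nnat start (chromosome 2, 157559901 to 157560000) with 15 reads in PLZFon and 8 in WT, a ratio of 2.67 (1.06 to 7.27), and a Gnas window (174337001 to 174337100) with 13 and 7, whose ratio of 2.64 (0.981 to 7.83) includes equality. The called windows with the most reads were in Zdbf2 (chromosome 1, 63303501 to 63303600 and 63303601 to 63303700), with 46 PLZFon against 28 WT and 31 against 19 reads. Their ratios were 2.34 (1.43 to 3.89) and 2.32 (1.27 to 4.35). The inputs moved the same way, with 26 PLZFon against 17 WT and 32 against 16 reads. Besides these and the H13 window, the called windows with the most reads were another in H13 (152696701 to 152696800), with 11 PLZFon and 34 WT reads and inputs of 6 and 17, and the window before the middle one of the H13 place (152708001 to 152708100), with 10 and 33.

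In the authors' deposited table none of the 1902 windows had an adjusted p below 0.05, where 0.0144% of all listed windows (151) did. At an unadjusted p below 0.05 there were 61 windows, 3.21%, by the authors' deposited table, against 3.31% of all listed windows. The smallest p of these loci in the authors' deposited table, 0.000223 with an adjusted p of 0.426, was that of the Calcr window named above. The tool named for these values is edgeR, which here had 1 library against 1.

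Other genes of imprinting also held none past the rule. Of 21 further imprinted genes fixed as a list, 17 lay in the range of the table and 14 had at least 20 reads. None differed 2-fold, 7 lay above and 7 below equality, and the median log2 ratio was -0.01. Zim2 (log2 ratio 0.37, interval of the ratio 0.824 to 2.03) and Tfpi2 (-0.27, 0.39 to 1.69) differed most. Of 20 genes that set or keep imprints, 8 were in range and none differed 2-fold, with 1 above and 7 below equality and a median of -0.07. Nlrp5, an egg factor gene, had the largest difference at 0.49 (0.998 to 1.99), and Tet2, which encodes an enzyme that oxidises 5-methylcytosine, had -0.16 (0.745 to 1.08). Trim28, the corepressor gene that works with ZFP57, stood at -0.07 (0.692 to 1.3).

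The reference lists also held no locus past the rule. The median log2 ratio was -0.06 over 5 housekeeping loci, with B2m at 0.19 and Gapdh at -0.11, and -0.21 over 8 germline-specific loci, with Slc25a31 at -0.65 and Tex101 at -0.55, while Hormad1 stood at 0.36. It was -0.31 over 4 B cell marker loci, with Cr2 at -0.56 and Cd79a at -0.35. It was -0.03 over 2 myeloid marker loci, Fcgr3 at 0.10 and Itgam at -0.17, and -0.25 over 4 T cell marker loci, with Cd28 at -0.67 and Cd8a at -0.38, while Cd2 stood at 0.32. The intervals of all these named loci include equality, and a ratio of MeDIP reads does not measure which cells were sorted.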

How the data were processed

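The series holds 4 libraries of thymic NKT cells, grouped by title. BWA, edgeR and the mm10 build are named in the submitters' processing notes without versions, and sorted, unique-filtered alignments per the file headers. The deposited table gives raw read counts per window of 100 bp, RPKM values computed by the authors, the authors' relative methylation score and CpG factor score, and the authors' edgeR log2 fold changes with p-values and adjusted p-values. It has 1048576 lines with its header and ends on chromosome 7 at position 139972600.

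Dividing each count by its RPKM gave the total reads of a library. In the inputs the scaled squared difference of windows rose up to a distance of 4 windows (PLZFon 1.14, WT 1.15) and little beyond (1.2 and 1.23 at 8), so window sums were divided by 4. Ratios are depth-scaled, with exact (Clopper-Pearson) binomial 95% intervals, and Poisson intervals for reads over the mean of windows of the same CpG factor. PCR duplicates and animals are not covered. The 2-fold rule took windows and loci with at least 20 reads, a PLZFon over WT ratio 2-fold up or down, and equality outside the interval. The members, gene lists and regions were chosen with earlier results of these data known. Gene spans, starts and promoter sequences came from RefSeq tables of GRCm38.p6. Exons and introns were not annotated there. The starts of Peg10 and Gnasas1 were taken as gene ends from their known orientation, the Zdbf2 and Gnas control regions used the named starts, and in counts over all genes the start of each gene with the most CpG was used. The named windows were, per control region, the one with the most MeDIP reads, the 3 highest and 3 lowest ratios with at least 20 reads, and the 5 called windows with the most reads. For gene lists they were the 2 largest log2 ratios. Windows of the Nnat, Copg2, Inpp5f, Calcr and Gnas runs, and Trim28, Cd2 and Hormad1, were named after their values were seen. Other choices tried were TMM scaling, scaling by the listed windows with or without CpG classes, other flanks, region widths, read minimums and ratios. Python 3.11.15, scipy 1.17.1, pandas 2.3.3, R 4.3.3 and edgeR 4.0.16 (for TMM factors only) were used.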

Additional observations from a re-analysis of the deposited data

How the results depend on the processing

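The ratio over the 23 loci together lay between 0.981 and 1.02 under all 8 alternatives, and that over the control regions between 0.889 and 1.06. The MeDIP level in CpG-dense windows of control regions ranged from 0.391 to 0.494 of the listed windows of the same CpG factor in PLZFon. In WT it was 0.362 with a CpG factor of at least 7. MeDIP over input of the control regions in PLZFon was 5.17 within 500 bp of the starts, against 3.9 within 1000 bp. The member windows called were 22 higher and 29 lower with a minimum of 10 reads (1.39% and 1.57% of all listed windows), and 19 higher with TMM factors (1.80%). No member met the rule with TMM factors, a ratio of at least 1.5 or a minimum of 10 reads. The share of protein-coding loci that did so was not counted, so nothing is concluded from this. Of 229 values of single loci and regions, 226 stayed within their intervals. The others were Herc3 in windows with at least 20 reads (1.34) and Nespas within 500 bp (3.56) or in CpG-dense windows (3.32). The cause was not tested. No paired analysis was possible because each group has 1 library. Depth limits both the control regions, with 10.8 to 48 PLZFon MeDIP reads each, and small loci such as Mkrn3, with 10.5.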
